A study of Homo sapiens with 6 samples.

Results

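The RFX (regulatory factor X) family was described in astrocytes derived from H1, an established human embryonic stem cell line, in a ventral midbrain and a control (forebrain) character. Its members here are the 6 genes RFX1, RFX2, RFX3, RFX4, RFX5 and RFX7, of 8 RFX genes in the annotation, of 27439 genes with reads and of 15984 genes tested. The family was chosen by the summed reads of RFX4, which were higher in the ventral midbrain libraries, so it was selected on the difference between the groups. The members' levels and fold changes are therefore given as a description, with no test. Reads were summed per gene and per transcript in every library. RFX6 had 0 reads, and RFX8 had 5 in all libraries together.

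The ventral midbrain group and the control (forebrain) group had 3 libraries each, numbered 2, 3 and 4. The 2 groups shared the line, and the labels name no treatment or transgene. The source label names astrocytes while the cell type label names the stem cells. A single line limits the groups as a model, and nothing states that the libraries came from separate differentiations, so the spread between them may be technical. RNA was measured with 3′ end libraries of polyadenylated RNA, in which reads come from near the end of a transcript, whatever its length. The libraries held 11617935 to 15391082 estimated reads. Summed astrocyte markers reached, in counts-per-million units (CPM), 5582 to 6415 in ventral midbrain and 4844 to 5731 in control libraries. VIM had the largest difference in that list. Without it the sums were 1189 to 1910 CPM in ventral midbrain and 1580 to 2021 CPM in control libraries. These were lower in ventral midbrain for all 3 library numbers. GFAP, the astrocyte intermediate filament, averaged 371 ± 226 CPM in ventral midbrain and 362 ± 96.4 CPM in control libraries (SD, n = 3 each). Of the pluripotency markers TDGF1 was at 0 and the summed level was at most 8.70 CPM in any library.

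RFX proteins are transcription factors that share a winged-helix domain, which binds an inverted repeat in promoters known as the X-box. RFX1, RFX2 and RFX3 are known for the genes of cilia, RFX4 for the patterning of the neural tube in the mouse and for neural progenitors and astrocytes, and RFX5 for MHC class II genes, which it binds together with its partners RFXAP and RFXANK. RFX7 is known for genes that restrain growth, in human cells downstream of p53. Many RFX genes are active in the same cell, and RFX1 to RFX4 can form dimers.

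RFX4 lies on the plus strand at chr12:106582907-106762803 (GRCh38). Of the 11 promoter windows that RefSeq (GRCh38.p14) gives for 5 members, each from 250 bases before to 50 after a gene start, 1 held the X-box consensus, and it belongs to RFX4. The window is chr12:106600898-106601197, around an internal start of the gene, and is shown because it carries an X-box in the family member with the highest reads. Capitals mark the X-box, which spans chr12:106601137-106601150 and matches on both strands.
RFX4 internal promoter: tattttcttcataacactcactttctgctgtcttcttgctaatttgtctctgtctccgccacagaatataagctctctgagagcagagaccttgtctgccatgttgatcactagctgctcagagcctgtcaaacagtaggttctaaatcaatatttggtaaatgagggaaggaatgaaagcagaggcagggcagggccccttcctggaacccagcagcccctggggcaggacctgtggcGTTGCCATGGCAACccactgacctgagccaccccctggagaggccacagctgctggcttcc
The consensus, searched on both strands with 0 to 3 bases between its arms, was present in 1.31% of all 35116 windows. The annotated transcript RFX4-202 begins at base 106601137, on the first base of this X-box, but was given 1.04 estimated reads in all 6 libraries. Reads of 3′ end libraries do not show where a transcript began. RFX4-203, which starts at 106582907, and RFX4-201, which starts at 106684696, end 1 base apart, so the use of their starts cannot be told apart here.

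RFX4 had 188.9, 248.9 and 191.4 CPM in the ventral midbrain libraries, against 74.9, 78.5 and 56.0 CPM in the control libraries. The groups did not overlap, and the lowest ventral midbrain library, at 188.9 CPM, lay well above the highest control library, at 78.5 CPM. The means were 210 ± 33.9 CPM in ventral midbrain and 69.8 ± 12 CPM in control (SD, n = 3 each), a 3.0-fold ratio and a log2 fold change of 1.59 ± 0.19 (SE). Between 2673 and 3174 reads in ventral midbrain and 741 to 1024 reads in control libraries stood behind these levels. In bulk RNA, more cells that express a gene and more RNA per cell cannot be told apart.

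The other members differed less, from -0.11 to 0.64 on the log2 scale. They lie on the minus strand (GRCh38), RFX1 at chr19:13961538-14007039, RFX2 at chr19:5993164-6199572, RFX3 at chr9:3218297-3526004, RFX5 at chr1:151340640-151347357 and RFX7 at chr15:56087280-56243266. Of the 6 members, 1 passed edgeR's quasi-likelihood test at an adjusted p under 0.05, against 1.06% of all genes tested that passed it with a higher level in ventral midbrain (2.15% in both directions). This is the contrast that chose RFX4, so nothing is read from that count. Log2 fold changes were positive for 5 of the 6 members, beside 51.7% of all genes tested. Their median was 0.41, beside 0.01 over all genes tested. RFX4 is part of this count and this median, so nothing is read from them either.

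RFX3, a regulator of ciliary genes that in mice is needed for nodal cilia, had 53.2, 89.8 and 67.7 CPM in the ventral midbrain libraries, against 39.9, 57.2 and 37.7 CPM in the control libraries. The groups overlapped, because ventral midbrain library 2 lay below control library 3. Within the numbered pairs the log2 ratios were 0.42, 0.65 and 0.84 for the numbers 2, 3 and 4. The ventral midbrain library was higher in 3 of 3 pairs for 4 of the 6 members, RFX2, RFX3, RFX4 and RFX7, as it was for 21.1% of all genes tested. The means were 70.2 ± 18.4 CPM in ventral midbrain and 44.9 ± 10.7 CPM in control libraries (SD, n = 3 each), with a log2 fold change of 0.64 ± 0.23 (SE). With the replicate number as a block in the model, 2 of the 6 members passed, RFX3 and RFX4, against 3.63% of all genes that did so with a higher level (8.13% in both directions). Nothing is read from these counts either, since they come from the contrast that chose the family.

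RFX1, which can both activate and repress its targets, had 41.9, 35.4 and 49.5 CPM in the ventral midbrain libraries, against 39.4, 48.7 and 49.1 CPM in the control libraries. The groups overlapped throughout, with a log2 fold change of -0.11 ± 0.18 (SE). RFX2, which is needed for sperm formation in the mouse and for ciliary genes, had 14.2, 17.2 and 17.4 CPM in ventral midbrain, against 14.0, 14.5 and 8.85 CPM in control libraries. Control library 3 lay within the range of the ventral midbrain libraries and the other two control libraries below it, and the log2 fold change was 0.39 ± 0.25 (SE).

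RFX5, the DNA-binding partner in the MHC class II complex, had 19.7, 15.8 and 15.3 CPM in ventral midbrain, against 9.95, 10.5 and 17.2 CPM in control libraries. Control library 4 lay inside the ventral midbrain range while the other two control libraries were below it, and the log2 fold change was 0.43 ± 0.26 (SE). An antisense gene, RFX5-AS1, overlaps RFX5 and held 554 reads in all 6 libraries. RFX5-AS1 lies on the plus strand at chr1:151346967-151348027 and overlaps the start of RFX5, while the main RFX5 end is at base 151340640. The sources do not state whether reads were assigned by strand, so reads from the stretch of overlap may be exchanged. RFX7 had 24.1, 31.1 and 24.8 CPM in ventral midbrain, against 23.3, 23.9 and 18 CPM in control libraries. Its groups did not overlap, by a margin of less than 1 CPM between ventral midbrain library 2 and control library 3, and the log2 fold change was 0.30 ± 0.20 (SE). RFX4 and RFX7 were the members higher in ventral midbrain without overlap, which held for 9.17% of all genes tested. No member was lower without overlap, as 8.75% of all genes were, and the groups failed to overlap for 17.9% of genes in either direction.

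**Figure D1:**
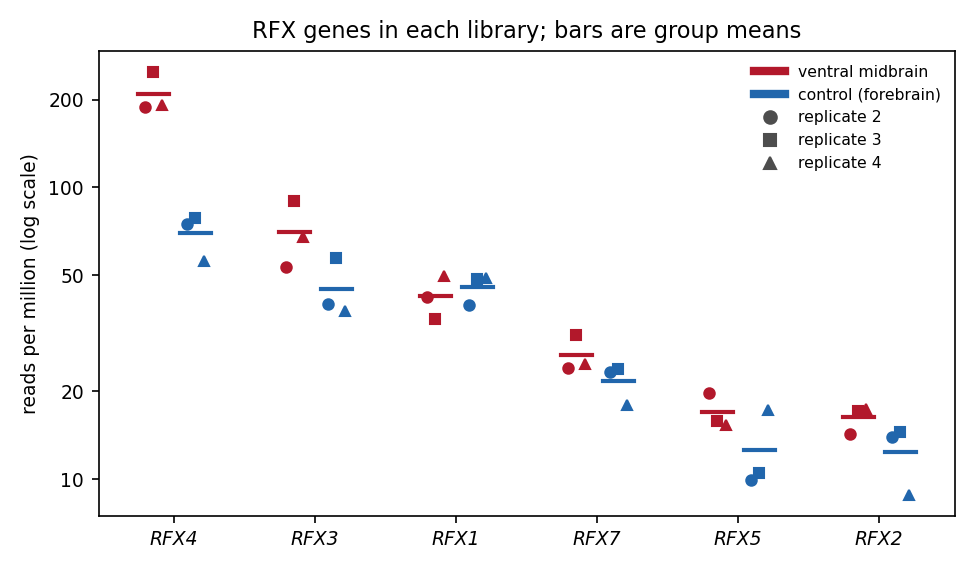
CPM (log axis) of the 6 RFX genes in each of 3 ventral midbrain (red) and 3 control (blue) libraries, with the group means as bars and the replicate number as the symbol. RFX4 is the gene whose groups are far apart, at means of 210 CPM in ventral midbrain and 69.8 CPM in control libraries, and replicate 3 (squares) is the highest ventral midbrain library for RFX4, RFX3 and RFX7.

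Control library 4 was the lowest control library for RFX2, RFX3, RFX4 and RFX7 and the highest for RFX1 and RFX5. Over the 6 libraries, Pearson's r with RFX4 on the log2 CPM scale was 0.85 for RFX3, 0.81 for RFX7, 0.78 for RFX2, 0.48 for RFX5 and -0.46 for RFX1. These values describe 6 points in 2 groups that differ in RFX4, and they mix the group difference with the spread within groups.

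RFX4 took a larger part of the family's reads in ventral midbrain. It was chosen for its higher reads there and counts in the sum, so the shares of all members are no separate result. The 6 genes together had 382 ± 50.01 CPM in ventral midbrain and 207 ± 23.7 CPM in control libraries (SD, n = 3 each). RFX4 made up 55.2%, 56.8% and 52.3% of these reads in ventral midbrain, against 37.2%, 33.6% and 29.98% in control libraries. RFX1 made up 11.3% ± 2.84 in ventral midbrain and 22.2% ± 3.55 in control libraries, while its own CPM overlapped between the groups. RFX3 made up 18.2% ± 2.49 in ventral midbrain and 21.5% ± 2.63 in control libraries.

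Levels of different genes were set side by side per length, in the deposited transcripts-per-million values (TPM) summed per gene. RFX4 was first, at 49.2 ± 6.78 TPM in ventral midbrain and 15.3 ± 3.84 TPM in control libraries (SD, n = 3 each). In ventral midbrain libraries RFX2 (12.5 ± 4.85 TPM) and RFX1 (10.9 ± 3.22 TPM) followed with overlapping ranges. RFX3 (2.71 ± 0.77 TPM) and RFX5 (2.10 ± 0.27 TPM) came next and overlapped as well, and RFX7 (1.268 ± 0.12 TPM) was lowest and below every RFX5 value. In control libraries RFX4 and RFX1 (10.97 ± 4.36 TPM) overlapped, as did RFX1 and RFX2 (5.75 ± 3.49 TPM), RFX2 and RFX3 (1.57 ± 0.58 TPM), RFX3 and RFX5 (1.44 ± 0.42 TPM), and RFX5 and RFX7 (0.987 ± 0.236 TPM). TPM divides by length, which plays no part in the number of 3′ end reads. Long transcripts such as RFX7-201, with 10426 bases, are placed low by this scale, and short ones high. By mean CPM, which takes no account of length, RFX7 stood above RFX5 and RFX2 in both groups. RFX2 had the lowest mean CPM of the 6 members in both groups, so its place by TPM does not reflect its reads.

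Reads of 3′ end libraries pile up at the ends of transcripts. The reads that Salmon, the authors' quantification tool, estimated per transcript were therefore summed by annotated end. Read positions were not examined, so reads at an end here are estimates and not counts of mapped ends. Of its transcripts 7 had reads, and they gave 6 ends once ends within 100 bases of each other were joined. The ends that collected most reads are shown with the last 30 bases of the transcript (GENCODE v29, GRCh38), since they tell the coding transcript from the shorter ones. For RFX4-210 the 30 bases are those that hold its polyadenylation signal, 37 bases before the end. Capitals mark the polyadenylation signal hexamer, where one of the 2 hexamers searched, AATAAA and ATTAAA, lay in the last 40 bases.
RFX4-203: tttcacactcaAATAAAaaatattgaaacg
RFX4-210: ttggAATAAAttcctaataattttccaaga
RFX4-207: cagaagactcgggacccgaggacagtcaaa
The end of the coding transcript RFX4-203, at base 106762802, had 165, 201 and 159 CPM in ventral midbrain, against 65.5, 64.5 and 47.7 CPM in control libraries. It held 83.8% ± 3.44 of RFX4 reads in ventral midbrain and 84.9% ± 2.63 in control libraries (SD, n = 3 each). The share differed by less than its spread, while the mean level was 2.96-fold higher in ventral midbrain.

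RFX4-210, a retained-intron transcript that ends at base 106683466, had 13.1, 30.5 and 20.7 CPM in ventral midbrain, against 4.21, 9.41 and 4.75 CPM in control libraries. Library 3 was the highest of its group in both. Its share of RFX4 reads was 9.99% ± 2.76 in ventral midbrain and 8.69% ± 3.19 in control libraries. RFX4-207, annotated as a target of nonsense-mediated decay, ends at base 106682054 inside an exon of RFX4-203 and has no signal hexamer. The split of reads between these 2 transcripts rests on Salmon's estimate. RFX4-207 had 9.26, 10.9 and 8.58 CPM in ventral midbrain, against 5.22, 3.24 and 3.60 CPM in control libraries. Its shares were 4.59% ± 0.28 in ventral midbrain and 5.84% ± 1.51 in control libraries. At all 3 ends the groups did not overlap and ventral midbrain was higher. The ends are parts of the RFX4 reads that chose the family, so this is a description alone.

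RFX2 had the most divided reads of the other members, its leading end RFX2-201 holding 53.6% ± 6.88 in ventral midbrain and 59.8% ± 13.2 in control libraries. RFX3-204 held on average 98.96% of RFX3 reads in ventral midbrain and 99.16% in control libraries, and RFX7 had a single end. These ends are shown, with any signal hexamer in capitals, because the members' levels rest on them. The RFX3-204 stretch stops 1 base before the end of the transcript, and neither RFX2 end has a hexamer.
RFX3-204: aatcAATAAAtttgtttccttgttacaaat
RFX1-201: tttcttaaaacAATAAAttccgctgtgata
RFX5-201: cacatatacATTAAAacattttaaatacca
RFX7-201: agagaAATAAAtgtctttctggtttaactc
RFX2-201: ggtaaccaatacaagctggtttctgcctta
RFX2-209: cagcctggcgacagagtaaaactccgtctc
The coding end RFX2-201 had 8.65, 8.07 and 9.24 CPM in ventral midbrain, against 9.0, 6.5 and 6.20 CPM in control libraries, so control library 2 lay within the ventral midbrain range. The noncoding RFX2-209 had 3.58, 7.84 and 5.51 CPM in ventral midbrain, against 3.58, 7.44 and 2.04 CPM in control libraries. It took 34.2% ± 10.5 of RFX2 reads in ventral midbrain and 33.4% ± 15.7 in control libraries. Of the 30-base words in its last 200 bases, 60.2% also occur in annotated transcripts of 1034 other genes, and none did for the leading ends of the 6 members. Reads given to RFX2-209 are therefore uncertain, and the RFX2 total with them.

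**Figure D2:**
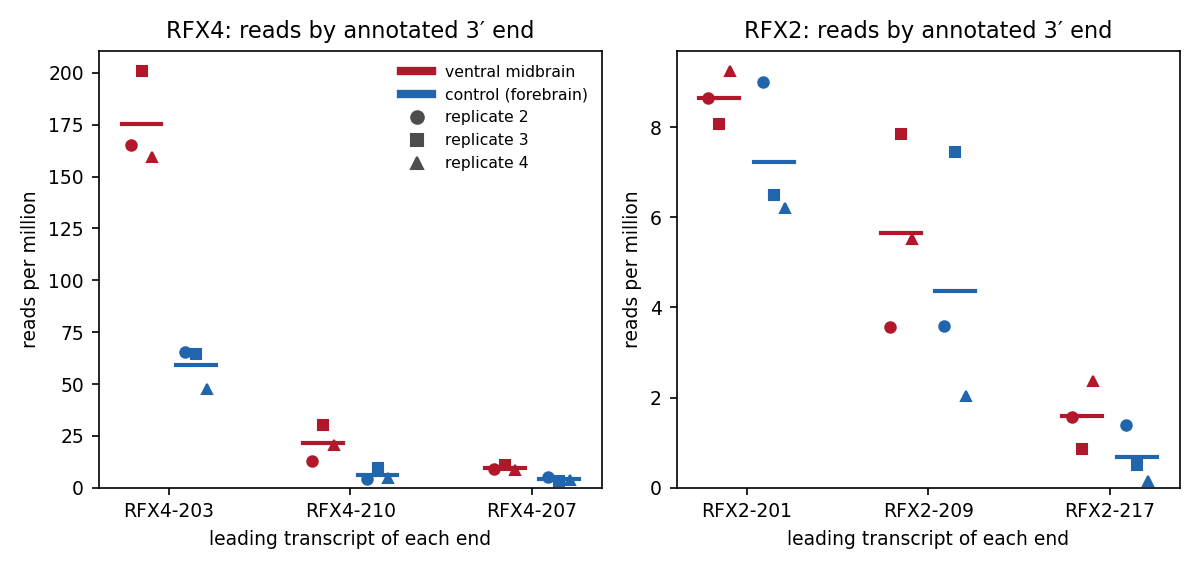
CPM from estimated reads per transcript, summed by annotated 3′ end, for RFX4 (left) and RFX2 (right) in each library. Ventral midbrain is in red and control in blue, with group means as bars. At the 3 leading RFX4 ends every red point lies above every blue point, while the groups overlap at all 3 RFX2 ends. RFX4 reads chose the family, so its panel is a description alone.

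The deposited normalized gene values gave RFX2 283, 205 and 385 units in ventral midbrain, against 239, 147 and 56.2 units in control libraries. On the log2(value + 1) scale limma gave a log2 fold change of 1.16 for RFX2 from these values, 0.39 being that from summed reads. For the other members the settings tried moved the fold change by less than the spread between libraries.

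**Figure D3:**
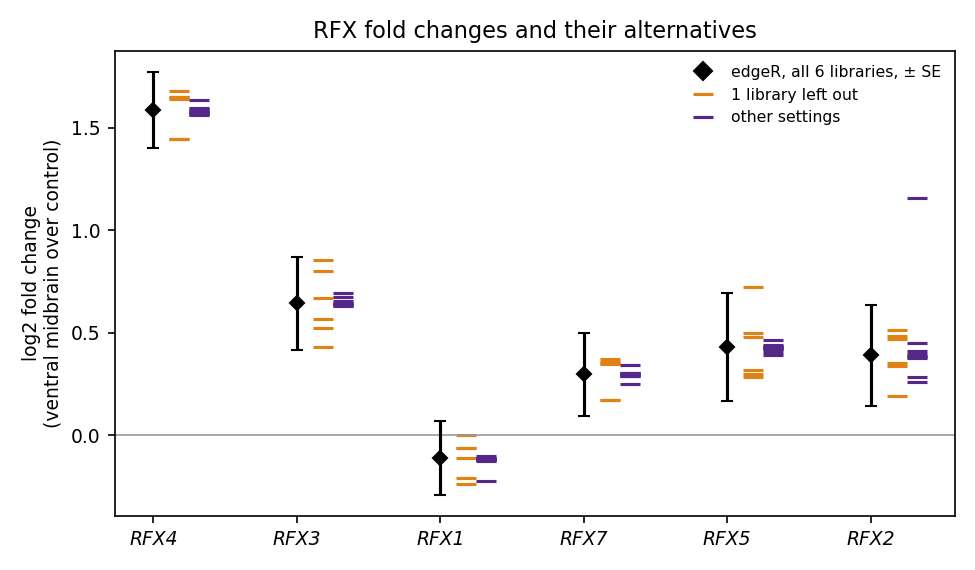
Log2 fold change, ventral midbrain over control, of each RFX gene with all 6 libraries (black, with the standard error), with 1 library left out (orange) and under other settings (purple). RFX4 stays between 1.44 and 1.68, and the isolated purple mark of RFX2 at 1.16 is the deposited normalized values.

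Genes that RFX factors are known to bind or act with were followed in 5 lists of 106 genes, of which 88 were tested. None passed edgeR's test at an adjusted p under 0.05, against 2.15% of all genes. Of the 88, 16 had an unadjusted p under 0.05, and nothing is read from that count, as the share over all genes is not given. DESeq2 called 5 of the 88, against 750 of all 15984 genes tested. The fit with the replicate block called 9, which are 5 higher and 4 lower, against 8.13% of all genes with that block. In the list counts that follow, positive and negative give only the sign of the log2 fold change, which was positive for 51.7% of all genes tested.

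The regulators of motile cilia were mostly too low to be tested. Of 8 listed genes 3 were tested, and MCIDAS, the multiciliation coregulator, had no reads. FOXJ1, the forkhead factor that drives motile cilia genes alongside RFX factors, had 82.4, 54.0 and 50.7 CPM in ventral midbrain, against 16.1, 10.95 and 3.48 CPM in control libraries. The groups were far apart, at 62.4 ± 17.4 CPM in ventral midbrain and 10.2 ± 6.34 CPM in control libraries with a log2 fold change of 2.61 ± 0.55 (SE), but the adjusted p was 0.087. It was 0.0013 with the replicate block. E2F5 and E2F4, which act with the multiciliation coregulators, had log2 fold changes of 0.58 and 0.09 (adjusted p = 0.46 and 0.94).

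Genes of the motile axoneme, the microtubule core of moving cilia, were low. Of 33 listed genes 21 were tested, with 17 positive and 4 negative log2 fold changes and a median of 0.56, beside 0.01 for all genes. DNAH9, an outer dynein arm heavy chain, had 7.09, 7.06 and 7.02 CPM in ventral midbrain, against 3.0, 3.25 and 2.04 CPM in control libraries. That is a log2 fold change of 1.35 ± 0.35 (SE), with an adjusted p of 0.083 and of 0.028 with the block. CAPS, a calcium-binding protein of ciliated cells, went the other way, at 9.01 ± 1.09 CPM in ventral midbrain and 15.7 ± 1.77 CPM in control libraries (log2 fold change -0.80, adjusted p = 0.12, with the block 0.037). The list's members with the highest levels, SPEF2 and RSPH3, had log2 fold changes of -0.23 and 0.11. Counts of the dyneins DNAH2, DNAH5, DNAH10 and DNAI2 were too low to be tested.

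Markers of ependyma and choroid plexus, the ciliated linings of the ventricles and their folds, summed to 97.8 to 156 CPM in ventral midbrain and 79.7 to 120 CPM in control libraries. FOXJ1 and DNAH9 are in that list too, and its defining choroid gene TTR was at 0 in all libraries. None of its 5 tested genes passed the test. Without FOXJ1 the list summed to 43.8 to 74.0 CPM in ventral midbrain and 68.7 to 116 CPM in control libraries. Most of that remainder was the keratins KRT8 and KRT18, with log2 fold changes of -0.64 and -0.88. The other 3 tested genes, FOXJ1, DNAH9 and CIMAP3, had positive log2 fold changes of 2.61, 1.35 and 0.77. With the replicate block 2 genes of the list were higher and 2 lower past the threshold. Neuron markers summed to 708 to 1186 CPM in ventral midbrain and 1251 to 1981 CPM in control libraries. STMN2, a neuronal tubulin-binding protein, carried that gap in the sum. Without it the sums were 485 to 616 CPM in ventral midbrain and 525 to 611 CPM in control libraries. Of the 7 tested neuron markers 4 had positive and 3 negative log2 fold changes. The negative ones, STMN2, DCX and NEFL, at -1.24, -1.14 and -2.10, were lower past the threshold with the replicate block alone.

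Mesenchymal markers summed to 253 to 324 CPM in ventral midbrain and 703 to 1125 CPM in control libraries, nearly all of it COL1A1. Of the 6 genes COL1A1, COL3A1 and PRRX1 were lower past the threshold, while the low LUM and DCN had log2 fold changes of 2.37 and 2.11 without passing it. Of 12 astrocyte markers 7 had positive and 5 negative log2 fold changes. AQP4, SLC1A3 and NFIA were higher past the threshold, and SOX9, CD44 and GJA1, at -0.43, -0.58 and -0.66, were lower past it with the replicate block alone. The part of these cell types in the RFX levels was not tested.

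All 36 listed genes of intraflagellar transport and the BBSome, the transport systems that build and supply every cilium, were tested. Log2 fold changes were positive for 25 and negative for 11, with a median of 0.12. KIF3B, a subunit of the anterograde motor kinesin-2, had 65.5 ± 8.01 CPM in ventral midbrain and 75.7 ± 2.43 CPM in control libraries. DYNC2H1, the heavy chain of the retrograde motor, had 59.3 ± 15.3 CPM in ventral midbrain and 63.2 ± 9.01 CPM in control libraries. ARL6, the GTPase that recruits the BBSome, had a log2 fold change of 1.08 ± 0.37 (SE) with an adjusted p of 0.22.

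The X-box consensus was present in promoter windows of 7 of 27 axoneme genes with a RefSeq window (25.9%), 2 of 32 transport genes (6.25%), 1 of 6 cilium regulators, 1 of 11 RFX7 targets (9.09%) and 0 of 14 genes of the MHC class II list, beside 1.61% of 27305 genes. These shares describe the letters of the windows and show no binding. The matches of DNAH1 and of the internal RFX4 window are shown because they hold the same 14 letters, with 6 bases on each side, and those of IFT122, DNAI1 and ABAT for comparison. Capitals mark the X-box, at chr3:52316214-52316227, chr12:106601137-106601150, chr3:129440212-129440226, chr9:34458806-34458818 and chr16:8712790-8712803, all printed as the plus strand. The DNAI1 letters match the consensus on the minus strand alone, and the others match on both strands.
DNAH1: gctgatGTTGCCATGGCAACccggat
RFX4: tgtggcGTTGCCATGGCAACccactg
IFT122: atgtacGTTGCCAGGGGTAACgcaggt
DNAI1: tggtcgGTTGCTGGGTAACcgcgtc
ABAT: ccattgGTTGCCTCGGCAACggcgta
DNAH1 itself, an inner dynein arm heavy chain, was too low to be tested, at 1.06 ± 0.65 CPM in ventral midbrain and 0.523 ± 0.257 CPM in control libraries.

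Genes described as direct targets of RFX7 were all measured, 12 of 12, with 8 positive and 4 negative log2 fold changes and a median of 0.09. ABAT, the enzyme that breaks down GABA and the carrier of the X-box shown above, had 36.3, 39.5 and 25.4 CPM in ventral midbrain, against 15.1, 19.4 and 9.76 CPM in control libraries. Every ventral midbrain library was above every control library, and the log2 fold change was 1.19 ± 0.27 (SE). Its adjusted p was 0.055, and 0.00048 with the block. DDIT4, an inhibitor of mTOR signalling named because it passed with the block alone, had 192 ± 48.2 CPM in ventral midbrain and 133 ± 52.2 CPM in control libraries (adjusted p = 0.54, with the block 0.014). TP53INP1, a p53-induced gene, had a log2 fold change of 0.47 (adjusted p = 0.23). The highest genes of the list, the stress-response gene SESN3 and the nuclear receptor coactivator PNRC1, had log2 fold changes of -0.10 and 0.14.

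The MHC class II list joined the partners of RFX5 with the genes they act on, and 16 of its 17 genes were tested. Log2 fold changes were positive for 7 and negative for 9, with a median of -0.20. RFXAP and RFXANK, the subunits that form the complex with RFX5, are named for that role after their values were seen. RFXAP had 16.5 ± 1.26 CPM in ventral midbrain and 10.7 ± 4.32 CPM in control libraries (log2 fold change 0.63, adjusted p = 0.42). RFXANK had 16.9 ± 2.59 CPM in ventral midbrain and 13 ± 3.92 CPM in control libraries (log2 fold change 0.39, adjusted p = 0.66). CREB1, which binds the neighbouring promoter element, had a log2 fold change of 0.31 (adjusted p = 0.45).

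No gene of this list passed the test, and the 3 that passed with the block were class II genes with lower levels in ventral midbrain. HLA-DRB1, a beta chain, had 26.5, 22.5 and 34.4 CPM in ventral midbrain, against 56.3, 39.9 and 59.1 CPM in control libraries. The groups did not overlap, and the log2 fold change was -0.90 ± 0.21 (SE) with an adjusted p of 0.063 and of 0.0013 with the block. HLA-DRA, the alpha chain, had 48.6, 42.7 and 50.3 CPM in ventral midbrain, against 66.6, 65.9 and 74.6 CPM in control libraries (log2 fold change -0.55 ± 0.15, adjusted p = 0.10, with the block 0.014). CD74, the invariant chain that accompanies class II proteins, named because it passed with the block alone, had 35.1 ± 6.91 CPM in ventral midbrain and 49.1 ± 6.21 CPM in control libraries (adjusted p = 0.31, with the block 0.048). Immune and endothelial markers summed to at most 2.71 CPM in any library, with the microglial gene AIF1 at 0. Reads of HLA genes can be split between near-identical copies, so single HLA levels are uncertain.

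**Figure D4:**
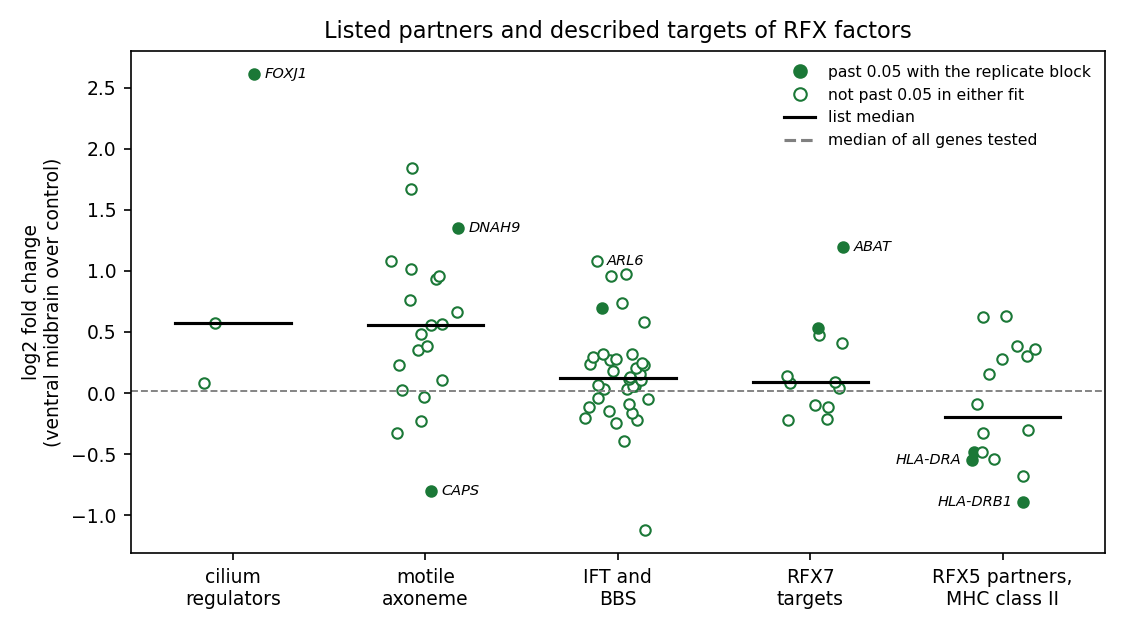
Log2 fold change, ventral midbrain over control, of the tested genes in 5 lists of described partners and targets, with list medians as bars and the median of all genes as a dashed line. Filled points passed edgeR's test with the replicate block, and none passed the main edgeR fit without it. FOXJ1 at 2.61 is the highest and HLA-DRB1 at -0.90 the lowest of the filled points.

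Among 11345 protein-coding genes with an average log2 CPM of at least 2, the pattern most like that of RFX4 over the 6 libraries was that of MMD, with a Pearson r of 0.999 on the log2 CPM scale. MMD had 52.1, 59.5 and 49.98 CPM in ventral midbrain, against 27.9, 28.8 and 24.0 CPM in control libraries. As in RFX4, library 3 was the highest of each group. SCML1, MID1, ZEB2 and TMEM199 followed, at 0.995, 0.994, 0.994 and 0.992. Their log2 fold changes were 1.48, 1.29, 1.19 and 0.31, so TMEM199 shared the order of the libraries but not the size. Genes that differ between the groups lead any such ranking over 6 libraries of 2 groups. FOXJ1 had an r of 0.93.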

How the data were processed

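RNA of H1-derived astrocytes was analysed in 3 ventral midbrain and 3 control (forebrain) libraries. Per the labels' protocols, RNA was extracted with TRIzol and 3′ end libraries were made with a QuantSeq forward kit. The tools named by the authors, per the submitters' processing notes, are Salmon (version not given) and DESeq2 1.27.12, with GRCh38.p13. Each library came with Salmon's estimated counts and TPM of 226608 transcripts as deposited, and the authors deposited a table of normalized gene signal, which was used only as an alternative. The members and all gene lists were chosen with earlier results of these data known.

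Estimated counts of 205225 transcripts (90.6%) matched to GENCODE v29 were summed per gene and rounded. Unmatched transcripts held 0.992% to 1.12% of reads. edgeR 4.0.16 (filterByExpr, TMM, robust quasi-likelihood test, Benjamini-Hochberg adjustment) in R 4.3.3 was fitted to 15984 genes. CPM use the TMM-scaled library sizes, and SE is the log2 fold change over the root of F. No length term was used, since 3′ end reads do not scale with length. A transcript's reads were joined with those of ends within 100 bases. The test was run on simulated data for this comparison (15485 genes tested). It called 35% of the 100 genes given a 2-fold change and 94% of the 100 given a 4-fold change, and 2 of its 131 calls were false. Simulated counts followed the trended dispersion, with no gene-specific dispersion and no effect of the replicate number. Only genes with a log2 mean CPM of at least 2 were changed. These shares therefore do not describe lower or more variable genes.

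Both groups carry the numbers 2, 3 and 4. The libraries' deviations from their group mean had correlations of 0.234, 0.345 and 0.204 for the same number and at most 0.0237 for other pairs. The numbers were taken as pairs from these values. Deviations from a mean cancel within a group, so low values for other pairs are no separate support. The p-values with the block rest on pairs taken from the same data. No label says what they share. Named genes are the 6 members, RFX6 and RFX8 once, from each list the genes past the threshold (up to 6), the 2 with the highest level and 2 more with the smallest p, and the 5 genes most like RFX4. For 1 such gene no values are reported here, but it is part of the counts. Alternatives were RLE scaling, DESeq2 1.42.0, no filter, a minimum of 2 CPM in 3 libraries, a gene-length offset, protein-coding transcripts alone, deposited values with limma 3.58.1, the block, leaving out each library and, chosen after seeing the data, each member's leading 3′ end alone.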

Additional observations from a re-analysis of the deposited data

How the results depend on the processing

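Fold changes of RFX3, RFX4, RFX5 and RFX7 kept their sign and moved by less than the spread between libraries under all 15 alternatives, leaving out each library included. RFX4 ranged from 1.44 to 1.68, RFX3 from 0.43 to 0.86, RFX5 from 0.29 to 0.72 and RFX7 from 0.17 to 0.37. RFX1 ranged from -0.24 to 0.001, reaching the upper value when a library was left out. RFX2 ranged from 0.19 to 0.51 with a library left out and was 1.16 with the deposited normalized values, and the cause was not tested. Of all genes 344 passed the test, against 750 with DESeq2, 1012 with no filter and 1300 with the replicate block. With 1 library left out 131 to 258 passed, with 131 without control library 4, 159 without ventral midbrain library 2, 168 without ventral midbrain library 4 and 211 without control library 2. Of the 88 list genes 0 passed, against 5 with DESeq2 (ABAT, DNAH9, FOXJ1, HLA-DRA and HLA-DRB1), 1 with the gene-length offset (ABAT), 4 with no filter and 9 with the block. With 1 library left out 0 to 2 passed, with 2 without control library 3 (ABAT and HLA-DRB1) and 1 without control library 4 (FOXJ1). Of the 8 regulators of motile cilia, 5 were below the filter on low counts, at 0 to 0.862 CPM in any library, and were not compared.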
